A study of Mus musculus with 8 samples.

Results

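The 10 genes described here build the machinery that turns electrical excitation of a skeletal muscle fibre into a calcium signal and then removes that calcium. They were taken as a fixed list from the deposited table of 55487 genes: the calcium release channel gene Ryr1, the dihydropyridine receptor genes Cacna1s, Cacnb1 and Cacng1, the calcium pump genes Atp2a1 and Atp2a2, the luminal buffer genes Casq1 and Casq2, the pump inhibitor gene Sln and the cytosolic buffer gene Pvalb. All 10 were found, and each had 10 or more counts in all libraries, the lowest single value being 98 counts for Sln. RNA came from 8 male C57BL/6J mice aged 10 weeks. Casts held both hindlimbs of each mouse immobile for 8 days, and every mouse also received K14Q MOTS-c, an amino-acid variant of the mitochondrially encoded peptide MOTS-c, injected into the peritoneum 2 times per day for a total of 15 mg/kg/day. The labels call the tissue vastus lateralis, whereas the study's methods name the gastrocnemius, so the muscle itself is uncertain. All libraries belonged to this 1 condition, and libraries of uncast, untreated or wild-type peptide-treated mice were not analysed here. The values therefore give levels, proportions between isoforms and variation between mice, and they give no effect of the cast or of the peptide.

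In skeletal muscle, an action potential entering the transverse tubule moves the voltage sensor of the dihydropyridine receptor, which opens the ryanodine receptor of the facing sarcoplasmic reticulum by mechanical coupling. Calcium held on calsequestrin inside the reticulum then floods the cytosol, binds troponin and starts contraction. SERCA pumps return it, parvalbumin speeds relaxation by binding it in the cytosol, and sarcolipin lowers the efficiency of the pump. Fast fibres use SERCA1, calsequestrin 1 and parvalbumin, whereas slow fibres use SERCA2, which is also the cardiac pump, and a larger proportion of calsequestrin 2.

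The libraries held between 23985356 and 33012497 recovered counts. The 10 genes together took between 2.31% and 3.11% of them. The tissue markers Acta1, Ckm, Mb, Ttn, Des and Myh4 were abundant in every mouse, with summed levels of 1609269 to 3417425 normalized counts. The cardiac hormone genes Nppa and Nppb and the neuronal genes Snap25, Syt1, Rbfox3 and Nefl were at or under 3 counts per library. Other cardiac markers were present: Myh6, which may share reads with the near-identical Myh7, had 669 to 1720 normalized counts and Tnnt2 94.7 to 272, while Tnni3 had 0 to 10.8, and the list of 5 summed to between 767 and 1912. No library repeated another, because the chi-square per degree of freedom was between 16.1 and 119 over the 28 pairs of libraries.

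RefSeq promoter windows on GRCm38.p6 were matched by symbol for 7 of the 10 genes, and those of Cacng1, Atp2a2 and Sln were not matched. The 250 bases before the annotated start are printed for the 4 genes that had an exact p under 0.05 with a score of fast contractile genes, as described further on. Capitals mark E-boxes (CANNTG, bound by myogenic basic helix-loop-helix factors), MCAT elements (CATTCC, searched on both strands, so that GGAATG also counts) and the MEF2 motif (searched on both strands), and no match overlapped another.
Casq1: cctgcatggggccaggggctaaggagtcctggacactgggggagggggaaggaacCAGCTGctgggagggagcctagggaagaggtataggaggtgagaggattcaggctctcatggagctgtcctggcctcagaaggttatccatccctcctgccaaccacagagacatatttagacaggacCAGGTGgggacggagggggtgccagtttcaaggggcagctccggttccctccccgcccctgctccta
Pvalb: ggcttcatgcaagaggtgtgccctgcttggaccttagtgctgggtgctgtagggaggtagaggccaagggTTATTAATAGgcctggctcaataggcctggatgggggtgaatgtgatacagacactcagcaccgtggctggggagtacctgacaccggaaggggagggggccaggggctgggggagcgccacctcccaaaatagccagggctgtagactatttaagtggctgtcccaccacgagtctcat
Atp2a1: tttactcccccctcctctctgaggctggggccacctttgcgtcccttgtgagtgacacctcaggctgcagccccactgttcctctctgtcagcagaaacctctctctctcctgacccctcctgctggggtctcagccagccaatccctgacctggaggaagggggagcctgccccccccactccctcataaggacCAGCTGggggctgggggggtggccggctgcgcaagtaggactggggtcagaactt
Cacna1s: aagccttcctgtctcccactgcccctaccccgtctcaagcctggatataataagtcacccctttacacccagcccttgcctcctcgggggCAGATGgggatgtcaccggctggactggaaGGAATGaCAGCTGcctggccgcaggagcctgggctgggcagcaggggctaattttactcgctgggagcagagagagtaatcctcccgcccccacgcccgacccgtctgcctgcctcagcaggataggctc
These windows lie at chr1:172219896-172220145 on the minus strand for Casq1, chr15:78206401-78206650 on the minus strand for Pvalb, chr7:126463074-126463323 on the minus strand for Atp2a1 and chr1:136052561-136052810 on the plus strand for Cacna1s. The windows of Casq1 and Cacna1s held 2 E-boxes each, that of Atp2a1 held 1, and that of Pvalb held none. Pvalb carried 1 MEF2 match instead, between 180 and 171 bases before its start, and Cacna1s carried 1 MCAT match. Among the 3 genes whose windows are not printed, Casq2 held 2 E-boxes and 1 MEF2 match, while Ryr1 and Cacnb1 held none of these letters. E-boxes stood in 66.2% of all 32851 promoter windows of this length, MCAT elements in 12.6% and MEF2 matches in 2.92%, so an E-box was the usual case and a MEF2 match was not. The matches are descriptions of sequence.

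Among the 10 genes, those of fast-fibre calcium removal had the highest levels. Atp2a1, which encodes the fast-fibre pump SERCA1, and Pvalb, which encodes parvalbumin, led per kb of exon and stood at the 99.9th and 99.8th percentiles of all genes tested. Levels between genes are compared here as normalized counts divided by the length in kb of the union of annotated exons (GENCODE M21, GRCm38). The mean level was 154620 ± 28125 per kb for Atp2a1 (SD, n = 8) and 46486 ± 18378 per kb for Pvalb. It was 11126 ± 1986 per kb for Cacng1, 8339 ± 3879 for Casq1, 6718 ± 1153 for Ryr1 and 4020 ± 752 for Cacna1s. Below these, Atp2a2 reached 880 ± 130 per kb, Cacnb1 689 ± 198, Sln 279 ± 141 and Casq2 114 ± 25.9. The fast pump and the fast cytosolic buffer thus stood at the top of the order by exon length, and Sln and Casq2 at its foot.

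**Figure D1:**
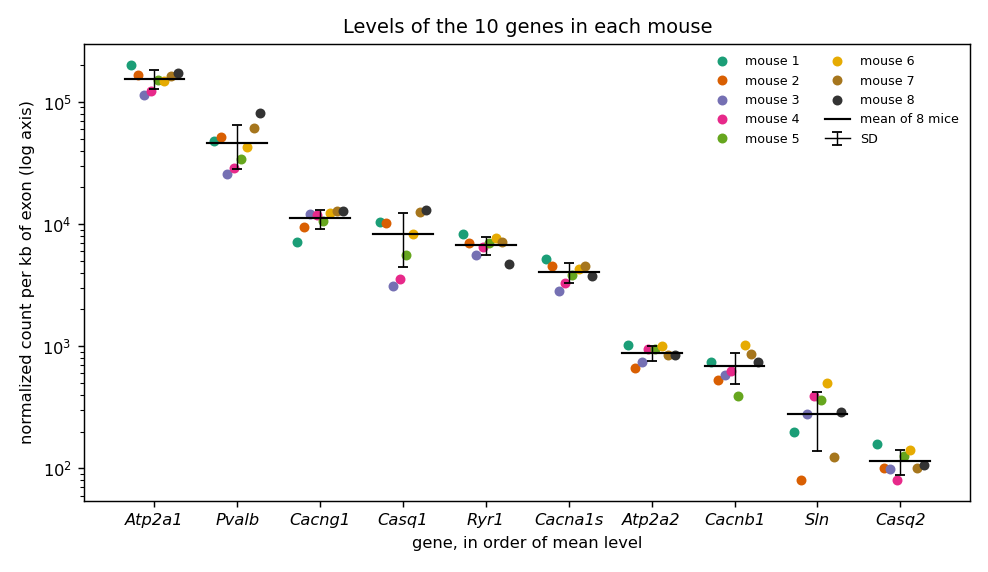
Normalized counts per kb of exon on a log axis for the 10 genes in order of mean level, with 1 point per mouse, the mean of 8 mice as a line and the SD as a bar. Atp2a1 stood near 154620 per kb and Casq2 near 114 per kb, and the points of Sln and Casq1 spread most widely.

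Each gene was set against its neighbour in this order within the same mice by an exact sign-flip permutation test on log2 levels per kb (two-sided, Benjamini-Hochberg over 9 neighbours). Of the 9 neighbouring pairs, 7 had an adjusted p under 0.05. Cacng1 against Casq1 (mean log2 difference 0.57 ± 0.91 SD, higher in 5 of 8 mice, exact p = 0.148, adjusted p = 0.167) and Casq1 against Ryr1 (0.16 ± 0.81, 5 of 8 mice, exact p = 0.602, adjusted p = 0.602) could not be put in order. The step from Atp2a2 to Cacnb1 was small, at 0.39 ± 0.43 on the log2 scale in 6 of 8 mice (exact p = 0.0312, adjusted p = 0.0402). Sln exceeded Casq2 in 7 of 8 mice by 1.11 ± 0.90 on the log2 scale, with the same p-values. These 2 calls did not hold when single mice were left out: that of Atp2a2 against Cacnb1 was lost without mouse 1, 2, 3, 4, 5 or 8 and under the longest transcript's length, and that of Sln against Casq2 without any mouse but mouse 2. The other 5 steps held in 8 of 8 mice at an exact permutation p of 0.00781, the smallest value that this test can give. With the coding length in place of the exon length, 3 of the 9 steps differed. Atp2a1 and Pvalb, at 180286 and 146641 per kb of coding length, could then not be put in order, and Sln moved above Atp2a2, the coding part of its transcript being short.

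Ryr1, the release channel of the sarcoplasmic reticulum (ENSMUSG00000030592, chr7:29003344-29125179, minus strand), ranged from 101961 normalized counts in mouse 8 over a median of 152650 to 181308 in mouse 1. Its coefficient of variation was 17.2%. Mouse 8 was the lowest, and the other 7 mice had 121516 or more. Ryr1 held 99.9% ± 0.0757 (SD, n = 8) of the ryanodine receptor transcripts per kb. The remainder was nearly all Ryr3, the form found mainly in developing muscle and diaphragm, at 177 ± 84.3 normalized counts, and the cardiac Ryr2 had 2 to 9 counts per library.

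Cacna1s, the pore-forming and voltage-sensing subunit of the dihydropyridine receptor (ENSMUSG00000026407, chr1:136052750-136119822, plus strand), ranged from 18603 normalized counts in mouse 3 over a median of 26483 to 33839 in mouse 1. Mice 3 and 4 had the lowest levels. The ratio of Cacna1s to Ryr1 per kb was 0.603 ± 0.0964, and it was highest in mouse 8 at 0.800, the mouse with the least Ryr1. Cacna2d1, the alpha2-delta subunit of the same receptor, followed Cacna1s closely: the ratio of Cacna1s to Cacna2d1 per kb was 3.38 ± 0.135, with a range of 3.15 to 3.55. Its coefficient of variation of 4.0% was the smallest of the 12 ratios computed, the next being 15.5% for Cacna1s to Stac3, the adaptor needed for coupling. The cardiac alpha1 gene Cacna1c made up 0.129% ± 0.0304 of both alpha1 transcripts per kb.

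Cacnb1, the cytosolic beta subunit that carries the receptor to the triad (ENSMUSG00000020882, chr11:98001508-98023034, minus strand), ranged from 1768 normalized counts in mouse 5 over a median of 3105 to 4621 in mouse 6. These extremes were 2.61-fold apart, although counting error alone gives a coefficient of variation of 1.81% for this gene against the 28.8% measured. Cacnb1 held 96.5% ± 1.90 of the beta subunit transcripts per kb, and the share was lowest in mouse 5 at 92.4%, against 95.6% to 98.3% in the other 7. Most of the rest was Cacnb4, at 2.38% ± 1.82 and 6.51% in mouse 5.

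Cacng1, the gamma subunit that limits current through the channel (ENSMUSG00000020722, chr11:107703218-107716522, minus strand), ranged from 8862 normalized counts in mouse 1 over a median of 14930 to 16090 in mouse 8. Mouse 1, which had the most Ryr1, Cacna1s and Atp2a1, had the least Cacng1. The coefficient of variation of Cacng1 was 17.8% over all 8 mice and 10.5% without mouse 1. Its paralog Cacng6 made up 7.94% ± 2.25 of both gamma transcripts per kb, and 12.9% in mouse 1.

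Atp2a1 (ENSMUSG00000030730, chr7:126445858-126463108, minus strand) ranged from 392956 normalized counts in mouse 3 over a median of 545361 to 700047 in mouse 1. Atp2a2, which encodes SERCA2 of slow fibres and heart (ENSMUSG00000029467, chr5:122453513-122502225, minus strand), ranged from 4001 in mouse 2 over a median of 5494 to 6280 in mouse 1. The fast pump outnumbered the slow one throughout. Atp2a1 made up 99.4% ± 0.126 of the SERCA transcripts per kb, with 99.2% in mouse 4 and 99.6% in mouse 2 as the extremes, and Atp2a3 contributed 0.0276% ± 0.00782. The ratio of Atp2a1 to Atp2a2 per kb was 178 ± 39.6 and ran from 128 to 252. Atp2a1 shared 21.9% of its exon bases with Rabep2 on the opposite strand, and since the use of strand in counting is not given in the sources used here, reads in that stretch could belong to either gene.

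Sln (ENSMUSG00000042045, chr9:53850164-53854560, plus strand) ranged from 106 normalized counts in mouse 2 over a median of 378 to 664 in mouse 6, a 6.27-fold range. Mice 2 and 7 had the lowest levels, at 106 and 164, and the other 6 had 263 or more. The ratio of Atp2a1 to Sln per kb was correspondingly broad, at 798 ± 623. Among the other small pump regulators, Mrln (myoregulin) had 250 ± 113 normalized counts and 211.5 per kb, beside the 279 per kb of Sln. Pln (phospholamban, the cardiac regulator) had 39.0 ± 7.31 normalized counts, and Strit1 (the pump activator DWORF, listed under its older symbol) had 0 to 4 counts.

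Casq1, the calsequestrin of fast fibres and the main calcium store of the reticulum (ENSMUSG00000007122, chr1:172209894-172219868, minus strand), ranged from 6086 normalized counts in mouse 3 over a median of 17928 to 25319 in mouse 8. Mouse 4 was almost as low as mouse 3, at 6902, and mouse 5 followed with 10974, while mice 1, 2, 6, 7 and 8 all had 16067 or more. The extremes were 4.16-fold apart. Casq2, the cardiac and slow-fibre calsequestrin (ENSMUSG00000027861, chr3:102086415-102146514, plus strand), ranged only from 219.9 in mouse 4 over a median of 284 to 436 in mouse 1. Casq1 made up 98.3% ± 0.808 of both calsequestrin transcripts per kb, and the ratio of Casq1 to Casq2 per kb ran from 31.5 in mouse 3 to 125 in mouse 7. Over this whole range Casq1 stayed in clear excess in every mouse. Casq1 shared 8.00% of its exon bases and Cacna1s 20.0% with antisense transcripts.

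**Figure D2:**
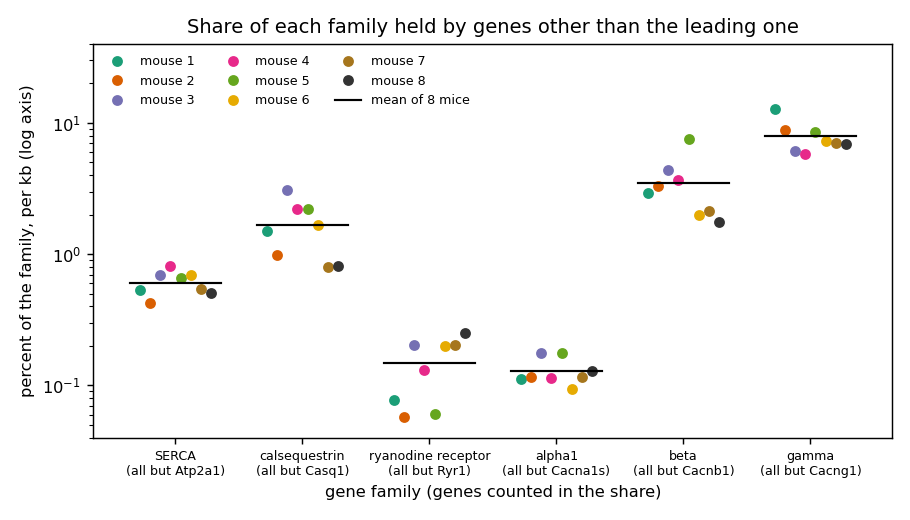
Percent of each gene family's transcripts per kb, on a log axis, held by genes other than the leading one, with 1 point per mouse and the mean of 8 mice as a line. Other genes held 0.129% of the alpha1 transcripts on average and 7.94% of the gamma transcripts, with mouse 5 high for beta and mouse 1 high for gamma.

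Pvalb, the buffer that takes up calcium in fast fibres before the pump does (ENSMUSG00000005716, chr15:78191114-78206400, minus strand), ranged from 26589 normalized counts in mouse 3 over a median of 47050 to 84050 in mouse 8. Mouse 4, with 29689, and mouse 5, with 35164, were the next lowest, which is the order also seen for Casq1. The extremes were 3.16-fold apart. The ratio of Pvalb to Casq1 per kb was 6.02 ± 1.41, a range of 1.80-fold, narrower than that of either gene.

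The variation between mice was uneven across the genes. Sln (coefficient of variation 50.6%), Casq1 (46.5%) and Pvalb (39.5%) exceeded the 95th percentile of the 15135 genes that reached 10 counts in each of the libraries, which was 36.8%. The median over all these genes was 15.6%, and 9 of the 10 genes lay above it, Atp2a2 at 14.7% being the exception. Under library totals the median was 18.2% and 6 of the 10 genes lay above it, with Ryr1 at 14.8%, Cacna1s at 11.7%, Atp2a1 at 11.2% and Atp2a2 at 16.3% below. Cacnb1 had 28.8%, Casq2 22.6%, Cacna1s 18.7%, Atp2a1 18.2%, Cacng1 17.8% and Ryr1 17.2%. Counting error alone gives between 0.138% for Atp2a1 and 5.68% for Casq2, a small part of the spread measured. By mouse, mouse 1 had the highest level of 5 of the genes, and mouse 3 had the lowest level of 4 and was above the mean for 2. The median difference of the 10 genes from their means was -0.24 on the log2 scale in mouse 3 and -0.17 in mouse 4, while the median over all genes was 0.01 and 0.02 in these mice.

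**Figure D3:**
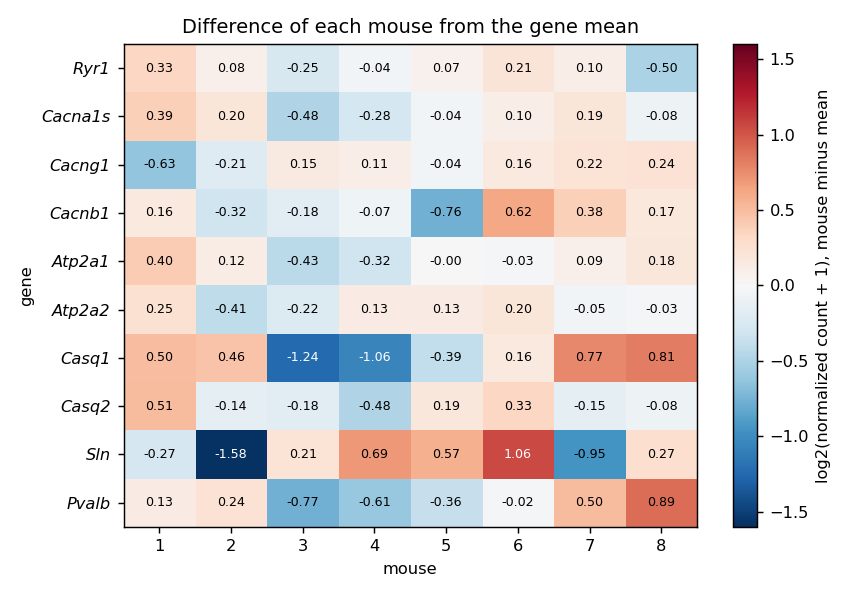
Difference of each mouse from the gene's mean of log2(normalized count + 1), in red where higher and blue where lower, for the 10 genes in rows and the 8 mice in columns. Casq1 and Pvalb were lowest in mice 3 and 4, while Sln was lowest in mice 2 and 7.

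Casq1 and Pvalb rose and fell together across mice. They had the closest relation of the 45 pairs of the 10 genes, with Pearson's r = 0.95 and Spearman's rho = 0.98 on log2(normalized count + 1) over 8 mice (exact permutation p = 4.96e-05 and 0.000397, two-sided). Without mice 3 and 4, which lay farthest from the median, r was 0.92. In a limma regression of all genes on each of the pair, which adjusts over every gene tested, the larger adjusted p was 0.0427. In that fit 1.24% of all genes passed for Casq1 and 0.106% for Pvalb, beside 0.033% for Cacna1s and 0.0132% for Cacng1. The adjusted call rested on most of the mice: limma's adjusted p without mouse 1, 2, 3, 4, 6 or 7 was 0.0543, 0.0501, 0.124, 0.218, 0.0882 and 0.149 in turn, although r stayed between 0.93 and 0.99 whichever mouse was left out. In bulk muscle, fewer fibres of a type and less RNA per fibre cannot be told apart.

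Another 4 pairs had an exact permutation p under 0.05 without reaching limma's adjusted threshold. Cacna1s and Atp2a1 had r = 0.89 and rho = 0.74 (exact permutation p = 0.0032 and 0.0458, limma adjusted p = 0.158), with r = 0.67 without mice 3 and 1. Atp2a1 and Casq1 had r = 0.88 and rho = 0.86 (exact permutation p = 0.00407 and 0.0107, adjusted p = 0.135), with r = 0.50 without mice 3 and 4. Cacna1s and Casq1 had r = 0.81 and rho = 0.57 (exact permutation p = 0.014 and 0.151, adjusted p = 0.156), with r = 0.72 without mice 3 and 1. Atp2a1 and Pvalb had r = 0.77 and rho = 0.81 (exact permutation p = 0.0269 and 0.0218, adjusted p = 0.205), with r = 0.34 without mice 3 and 4. Without mouse 3, r was 0.81 for Cacna1s with Atp2a1, 0.80 for Atp2a1 with Casq1, 0.67 for Cacna1s with Casq1 and 0.65 for Atp2a1 with Pvalb, and without mouse 4 it was 0.71 for the last of these. The exact permutation p was then above 0.05 for Cacna1s with Casq1 without mouse 3 and for Atp2a1 with Pvalb without either mouse.

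The 5 pairs are 11.1% of the 45, and this lies among the shares of all genes that passed the same exact test with each gene: 15.1% with Casq1, 15.7% with Pvalb, 11.7% with Atp2a1, 13.3% with Cacna1s, 10.8% with Ryr1, 11.9% with Cacng1, 8.45% with Cacnb1, 6.45% with Sln, 4.08% with Casq2 and 1.59% with Atp2a2. The count therefore gives no result about the 10 genes as a group. Their median r was 0.21 over the 45 pairs, 31 of them positive, while the median r of all genes with each member was between -0.06 and 0.01. Mouse 8, with the least Ryr1 and the most Pvalb and Casq1, weighed on the count: 9 pairs had an exact p under 0.05 without it, against 4 to 6 without any other mouse. Without mouse 8, Ryr1 had r = 0.92 with Cacna1s, 0.90 with Atp2a1 and 0.79 with Casq1 (exact permutation p = 0.00317, 0.0107 and 0.0244), where all 8 mice gave 0.68, 0.34 and 0.15 (exact permutation p = 0.0625, 0.408 and 0.734). By rank over all 8 mice, rho was 0.83, 0.33 and 0.21 in turn (exact permutation p = 0.0154, 0.428 and 0.619). Once each library was corrected for GC content and length, Ryr1 with Cacna1s had r = 0.78 (exact permutation p = 0.0232). Over all mice Ryr1 had r = -0.14 with Pvalb, with an exact p above 0.05. The lowest r was that of Ryr1 with Cacng1, at -0.60 (exact permutation p = 0.124, rho = -0.43, exact permutation p = 0.299). Sln had r between -0.48 and -0.41 with Casq1, Pvalb, Atp2a1 and Cacna1s, none with an exact p under 0.05, and its highest r was 0.67 with Atp2a2 (rho = 0.57, exact permutation p = 0.0654 and 0.151), which became 0.82 without mouse 1 and 0.78 without mouse 3 (exact permutation p = 0.0264 and 0.0262). Cacna1s with Pvalb, at r = 0.61 over all mice, had 0.90 without mouse 8 (exact permutation p = 0.00675) and 0.83 once each library was corrected for GC content and length (0.0114). Atp2a2 with Casq2, at 0.52 over all mice, had 0.85 without mouse 4 (exact permutation p = 0.0161).

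**Figure D4:**
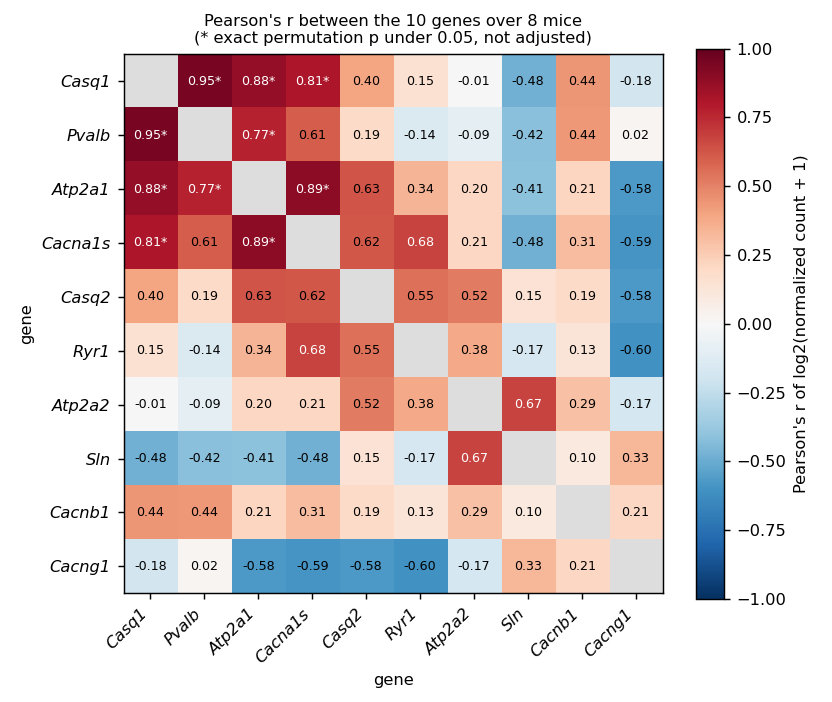
Pearson's r of log2(normalized count + 1) over 8 mice for each pair of the 10 genes, in red where positive and blue where negative, with an asterisk where the exact permutation p, not adjusted, was under 0.05. The 5 asterisks stand at Casq1 with Pvalb, Atp2a1 and Cacna1s and at Atp2a1 with Pvalb and Cacna1s, and the lowest value is that of Ryr1 with Cacng1, at -0.60.

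Casq1 and Pvalb also rose and fell with the fast contractile genes. A fast score, the mean z-score of Myh4, Myh1, Actn3, Tnnt3, Tnni2 and Tnnc2, was lowest in mice 3 (-1.52) and 4 (-1.17) and highest in mouse 8 (0.910). Casq1 had r = 0.98 and rho = 0.98 with it (exact permutation p = 0.000124 and 0.000397, limma adjusted p = 0.00718), and r = 0.92 without mice 3 and 4. Pvalb had r = 0.92 and rho = 0.93 (exact permutation p = 0.000422 and 0.00223, adjusted p = 0.0384), and r = 0.84 without these mice. Casq1 and Pvalb passed limma's adjustment over all genes, as did 0.793% of the genes tested. Their adjusted p was above 0.05 without certain mice: 0.0599 and 0.0627 for Casq1 without mouse 3 or 4, and 0.071, 0.17, 0.227, 0.0726 and 0.106 for Pvalb without mouse 2, 3, 4, 6 or 7. That of Pvalb was also 0.0608 under scaling by library totals.

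Atp2a1 had r = 0.94 and rho = 0.93 with the fast score (exact permutation p = 0.000397 and 0.00223, limma adjusted p = 0.0676), and r = 0.74 without mice 3 and 4. Once trends on length and GC content were taken out of each library, its limma adjusted p was 0.0409, whereas it was 0.174 under library totals, 0.321 without mouse 3, 0.324 without mouse 4 and between 0.0633 and 0.133 without any other mouse. Cacna1s had r = 0.84 and rho = 0.62 (exact permutation p = 0.00771 and 0.115, adjusted p = 0.144), and r = 0.36 without these mice. Without mouse 3 alone, the r of Cacna1s was 0.74 and missed an exact p of 0.05. Without mouse 8 its r was 0.97 and its limma adjusted p 0.0408, against an adjusted p between 0.157 and 0.483 without any other mouse. With GC content and length trends removed, its r was 0.93 and its limma adjusted p 0.0574. In all, 4 of the 10 genes had an exact p under 0.05 with the fast score, beside 13.9% of all genes. The other 6 did not, among them Ryr1 (r = 0.18, rho = 0.26, exact permutation p = 0.682 and 0.536), Atp2a2 (r = 0.01, rho = 0.17, exact permutation p = 0.988 and 0.703) and Sln (r = -0.51, rho = -0.38, exact permutation p = 0.184 and 0.36). Without mouse 8, however, Ryr1 had r = 0.81 with the fast score (exact permutation p = 0.02). The difference between the relations of Ryr1 and of Cacna1s with the score was not tested.

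**Figure D5:**
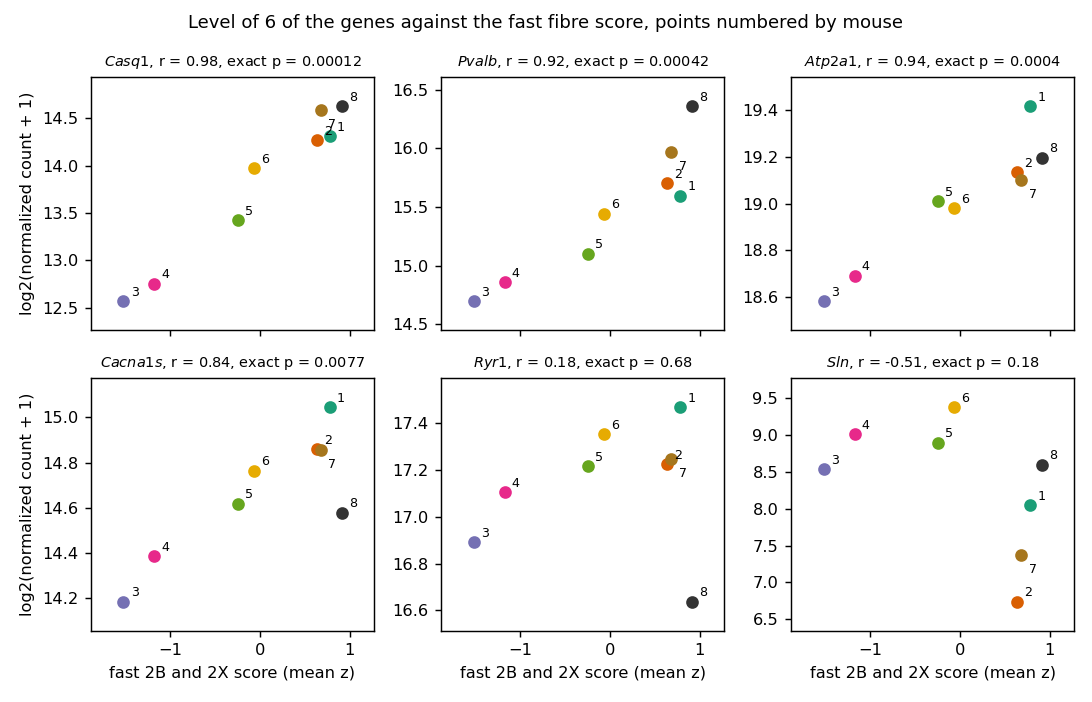
log2(normalized count + 1) of 6 of the genes against the fast 2B and 2X score (mean z-score of 6 contractile genes), with points numbered by mouse. Casq1, Pvalb and Atp2a1 climb with the score (r = 0.98, 0.92 and 0.94), mouse 8 lies below the run of the other mice for Cacna1s and is the lowest for Ryr1, and Sln has r = -0.51.

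Library and cellular measures also moved with these genes. The share of counts taken by the 10 most abundant genes of a library was lowest in mice 3 (18.8%) and 4 (19.6%) and highest in mouse 1 (26.2%). Atp2a1 itself and Myh4 of the fast score were among these 10 in all 8 libraries, and Tnnt3 of the fast score in 1, so the share is in part made of genes it is compared with here. Its r with Atp2a1 was 0.91 and with the fast score 0.91 as values of a part with a whole. It had r = 0.97 with Cacna1s (rho = 0.98, exact permutation p = 0.000124 and 0.000397, then 0.95 with the 2 farthest mice dropped), 0.88 with Casq1 (rho = 0.69, exact permutation p = 0.00561 and 0.0694, then 0.85) and 0.71 with Pvalb (rho = 0.67, exact permutation p = 0.0498 and 0.0831, then 0.67). For a share without these genes in its numerator, the 10 members and the 6 fast score genes were set aside. The 10 most abundant of the remaining genes then took between 16.3% of the counts in mouse 3 and 20.8% in mouse 7. The genes set aside stayed in the library total that this share was divided by, so some overlap remains. That share, chosen after the data were seen, had r = 0.92 with Cacna1s (rho = 0.83, exact permutation p = 0.00102 and 0.0154, then 0.96), 0.83 with Atp2a1 (rho = 0.76, exact permutation p = 0.0109 and 0.0368, then 0.97), 0.84 with Casq1 (rho = 0.83, exact permutation p = 0.0128 and 0.0154, then 0.81), 0.68 with Pvalb (rho = 0.86, exact permutation p = 0.0688 and 0.0107, then 0.60) and 0.86 with the fast score (rho = 0.79, exact permutation p = 0.00826 and 0.0279, then 0.86). With Sln its r was negative, at -0.75 (rho = -0.67, exact permutation p = 0.0312 and 0.0831, then -0.47). Scaling by library totals, which does not correct for such shares, took the r of Cacna1s with Atp2a1 to 0.70, with Casq1 to 0.64 and with the fast score to 0.61, and that of Atp2a1 with Pvalb to 0.63. It also took that of Casq2 to 0.63 with the slow score and to -0.48 with the score of disuse genes described further on. All 6 then had an exact permutation p above 0.05. Other relations fell under 0.05 with that scaling: Cacng1 with Cacna1s (r = -0.77, exact permutation p = 0.02), with Atp2a1 (-0.74, 0.0351) and with the disuse score (0.76, 0.0292), and Atp2a2 with Sln (0.89, 0.00317). Casq1 with Pvalb kept r = 0.92 and Casq1 with the fast score r = 0.97 under that scaling. The 5 macrophage markers, all present in every library, summed to 1257 normalized counts in mouse 8 and 3294 in mouse 4, the extremes of the 8 mice, and the 5 blood markers were also lowest in mouse 8 (7060) and highest in mouse 5 (28320). The macrophage sum on a log2 scale had r = -0.69 with Casq1 (rho = -0.60, exact permutation p = 0.0483 and 0.132) and -0.79 with Pvalb (rho = -0.55, exact permutation p = 0.02 and 0.171), or -0.44 and -0.36 without mice 8 and 7. The blood sum had r = -0.59 with Casq1 (rho = -0.57, exact permutation p = 0.114 and 0.151) and -0.64 with Pvalb (rho = -0.48, exact permutation p = 0.0902 and 0.243), or -0.13 and -0.29 without mice 5 and 3. None of these p-values was adjusted for the number of relations, and the part of these measures in the relations between the genes was not tested.

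With the slow-fibre genes, 2 of the 10 genes had an exact p under 0.05, and none passed limma's adjustment. Ryr1 joined them without mouse 8 (r = 0.84, exact permutation p = 0.0188, against 0.12 over all mice) and Atp2a2 without mouse 4 (r = 0.76, exact permutation p = 0.0462). The slow score, the mean z-score of Myh7, Tnnt1, Tnni1, Tnnc1, Myl2 and Myl3, was highest in mouse 1 and lowest in mouse 3. Atp2a1 had r = 0.82 with it (rho = 0.79, exact permutation p = 0.0132 and 0.0279, limma adjusted p = 0.993) and r = 0.59 without mice 1 and 3. Casq2, the calsequestrin that slow fibres also use, had r = 0.75 (rho = 0.86, exact permutation p = 0.0334 and 0.0107, adjusted p = 0.993) and r = 0.60 without these mice. The 2 of 10 genes stand beside 4.74% of all genes. The median r of the 10 genes was 0.57 with the slow score, 9 of them positive, and 0.37 with the fast score, 8 of them positive, and the difference was not tested. Neither relation was robust to single mice. Without mouse 1 the r of Atp2a1 was 0.72, and without mouse 1, 2, 3, 4, 5 or 7 that of Casq2 was 0.60, 0.74, 0.75, 0.68, 0.74 and 0.75, and 0.63 under library totals, each with an exact permutation p above 0.05. The count over the 30 relations with the 3 scores was 7, and it was 4 without mouse 1. Atp2a2, the slow pump, had r = 0.56 with the slow score (rho = 0.67, exact permutation p = 0.151 and 0.0831), and r = 0.72 with Myh7 alone, the slow myosin heavy chain (rho = 0.76, exact permutation p = 0.0413 and 0.0368, falling to r = 0.56 when the 2 farthest mice were dropped). Myh7 had an exact p under 0.05 with 3 of the 10 genes, beside 3.08% of all genes, and with none of the 10 by limma's adjustment.

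The third score covered genes that respond to denervation or disuse: Fbxo32, Trim63, Myog, Chrna1, Gadd45a, Runx1, Hdac4 and Ncam1, while Chrng fell below 10 counts. It was highest in mouse 4 (1.54) and lowest in mouse 1 (-0.893). Of the 10 genes, 1 had an exact p under 0.05 with this score, beside 7.35% of all genes. That gene was Casq2, with r = -0.75 (rho = -0.67, exact permutation p = 0.0286 and 0.0831, limma adjusted p = 0.551) and r = -0.28 without mice 4 and 1. Without mouse 1, 4 or 5 the r of Casq2 was -0.68, -0.59 and -0.74, and under library totals it was -0.48, each with an exact permutation p above 0.05. Sln, Casq1 and Pvalb had r = 0.38, -0.37 and -0.14 with this score (exact permutation p = 0.362, 0.366 and 0.75, rho = 0.45, -0.21 and -0.17). Relations whose r passed with 1 mouse left out were those of Ryr1 (r = -0.84) and Cacng1 (0.77) without mouse 4 and of Cacna1s (-0.80) without mouse 3, with exact permutation p = 0.0198, 0.0427 and 0.0292. The score itself moved with the library total (r = -0.89, rho = -0.62, exact permutation p = 0.00382 and 0.115, or r = -0.65 with the 2 farthest mice dropped), and the part of this in the relation was not tested.

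A minority of the wider pathway followed the fast score as well. Of 82 further genes of excitation-contraction coupling and calcium handling, 80 were found and 72 passed the count minimum. Tnnc2, the fast troponin C, is part of the fast score, overlaps Ube2c in its exons and is left out of this count. Of the remaining 71 genes, 20 had an exact p under 0.05 with the fast score, 1 of them negative, and 4 passed limma's adjustment: Trdn, Jph2, Stac3 and Stim2. This is 28.2% and 5.63% of the list, beside 13.9% and 0.793% of all genes. With Casq1, 26 of the 71 had an exact p under 0.05, 4 of them negative, and 5 passed the adjustment, the same 4 and Calm3. These are 36.6% and 7.04%, beside 15.1% and 1.24% of all genes. With Pvalb, 18 of the 71 (25.4%) had an exact p under 0.05, 2 of them negative, beside 15.7% of all genes, and 1, Trdn, passed the adjustment (1.41%, beside 0.106%). Jph2 and Calm3 lie outside the rule for named genes and were chosen after their values were seen.

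Trdn, which anchors calsequestrin to the release channel, had 54760 ± 15741 normalized counts and r = 0.97 with the fast score (exact permutation p = 0.000174, limma adjusted p = 0.0273). Jph2 (junctophilin 2, which holds the tubule and the reticulum together) had r = 0.97, and Stac3, which ties the voltage sensor to the release channel, had r = 0.96 (limma adjusted p = 0.0187 and 0.0439). Stim2, a calcium sensor of the reticulum that activates store-operated entry, had r = 0.92 (adjusted p = 0.0491). Calm3, which encodes calmodulin, had r = 0.88 with Casq1 (adjusted p = 0.0464). Trdn had an adjusted p of 0.0427 with Pvalb too. Jsrp1, another triad gene, had r = 0.16 with Casq1 and 0.09 with the fast score.

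The 2 genes with the highest level of each group of the wider list, and so not its typical members, are given here, and no difference between groups was tested. The group medians ran from 14.5 to 939 per kb. Spread within groups was uneven, the voltage sensor partners running from 5.08 to 1189 per kb and the calcium pumps and their small regulators from 14.1 to 212. Tmem38a, the counter-ion channel of the reticulum, had 10404 ± 530 per kb and a coefficient of variation of 5.09%, the lowest of the 72 genes. Hrc, a luminal calcium-binding protein, had 6352 ± 890 per kb, and Trdn 5855 ± 1683 per kb. Hspb6, a small heat shock protein that the list holds in its release-channel group, had 5661 ± 1681 per kb. Cacna2d1 had 1189 ± 214 per kb and Stac3 1009 ± 219 per kb. Tnnc2, at 111648 ± 32664 per kb, was the most abundant of the cytosolic calcium-binding genes, followed by Mylk2, the myosin light chain kinase of skeletal muscle, at 7410 ± 1267 per kb. The median level was 380 per kb over the 72 genes, 89.7 for store-operated entry and exchangers and 122 for mitochondrial uptake. Of the former, Stim1 had 372 ± 39.3 per kb, and Stim2 223 ± 58.4, and of the latter Smdt1 had 646 ± 101 and Micu2 387 ± 37.3. Of the plasma membrane pumps, Atp2b1 had 167 ± 15.9 per kb. Ocm, which encodes the beta form of parvalbumin, had 0 counts in every library, which allows up to 3 counts in each, and Jph3 had 0 or 1. Ryr3 (47.7%) was the only gene of the 72 with a coefficient of variation above that of every member but Sln.

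Genes outside the list whose levels were most like each member's were ranked by r on log2(normalized count + 1) over the 8 mice, among the 11069 genes averaging 100 normalized counts or more. With so many genes and 8 mice, high values are common, and these are descriptions. Casq1 was most like Mylf-ps (r = 0.99), Myl1 (0.99) and Rfk (0.99). Myl1 encodes the fast essential myosin light chain, whereas Mylf-ps is annotated as a processed pseudogene, and its reads may belong to a myosin light chain gene of near-identical sequence. Pvalb was most like Ppp3ca (r = 0.98), Htatsf1 (0.98) and Trdn (0.98). Ppp3ca encodes a catalytic subunit of the calcium-activated phosphatase calcineurin. Cacna1s was most like Myh8 (r = 0.99), Myh4 (0.98) and Tnk2 (0.98), and since Myh8 and Myh4 are near-identical in long stretches, reads between these myosins may have been shared. The genes most like Ryr1 included 2610507B11Rik (0.99) and Pacs2 (0.98), neither of which is a contractile gene. Atp2a1 was most like Kctd15 (r = 0.97), Ybx1 (0.97) and Rab28 (0.96), Atp2a2 most like Opa3 (0.93), Gm45855 (a processed pseudogene, 0.90) and Gm49338 (0.90), and Casq2 most like Tbc1d4 (0.94), Rcsd1 (0.94) and Capn3 (0.93). The nearest genes of Sln were Neurl2 (r = 0.97), Fiz1 (0.95) and Thap4 (0.95), those of Cacnb1 were Atg10 (0.96), Tsen34 (0.96) and Nicn1 (0.95), and those of Cacng1 were Cpne2 (0.98), Gm12816 (a processed pseudogene, 0.97) and 1810043G02Rik (0.97). Under Spearman's rho, 14 of the 30 genes ranked in this way were still among the 3 most like.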

How the data were processed

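Poly-A RNA-seq libraries (Universal Plus mRNA-Seq kit, Illumina NextSeq) from 8 mice of 1 group were analysed. The authors checked and trimmed the reads with FastQC and fastp, aligned them to GRCm38 by STAR, assigned them to genes by summarizeOverlaps and scaled the result by DESeq2. The annotation release, the use of strand and the handling of multi-mapped reads are not given in the sources used here. The deposited signal is the authors' count divided by 1 size factor per library (0.906 to 1.20), called the normalized count here. Every value was a whole multiple of 1 read within a tolerance of 0.01 (100% of values), so counts were recovered for depth, the minimum of 10 counts and other scalings. The counts are reads without molecular identifiers. The design had assumed raw counts.

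The 10 genes and all lists were chosen with earlier results of these data known. Symbols, positions, exon lengths and GC content came from GENCODE M21, which held 55141 of the 55487 identifiers. Promoters came from RefSeq (GRCm38.p6). Relations were Pearson's r and Spearman's rho on log2(normalized count + 1) over the 8 mice, with exact permutation of the 40320 pairings, two-sided. The design planned a Benjamini-Hochberg adjustment over the 45 pairs and over the 30 relations with 3 scores. Because the members were chosen with results known, a limma regression across 15135 genes, chosen after seeing the data, replaced it. For a pair, the larger adjusted p of both directions is given. Scripts were first tested on simulated data holding 100 planted genes per effect size: for a gene changing by 0.3 per SD of a mouse score on the log2 scale, 80.0% had an exact p under 0.05, for 0.6 98.0% did, and 5.44% of the genes without an effect did. None of the planted genes passed an adjustment of the exact p over all genes, which is why limma was used for it.

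Named genes were the 10 members, the score genes, in each group of the wider list the 2 highest per kb, member paralogs, small pump regulators and any gene more variable than every member but 1, and the 3 genes most like each member; a few named by this rule are not reported here. P-values measure the spread between these 8 mice only. Other settings tried were library totals, edgeR's TMM factors, removal of GC content and length trends, a pseudocount of 5 in place of 1, other gene lengths, Spearman's rho and leaving out each mouse. Python 3.11.15, numpy 2.4.6, pandas 2.3.3, scipy 1.17.1, R 4.3.3, edgeR 4.0.16 and limma 3.58.1 were used.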

Additional observations from a re-analysis of the deposited data

Results flagged for a closer look

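Among 65 sets of 8 values tested for a mouse that lies far from the others (Dixon's test at 95%, critical gap 0.526 of the range), 3 were picked out, and chance gives about 1 in 20, or 3.25 of these. The sets were the levels of the 10 genes and of the wider-list genes named by rule, the isoform shares, the ratios per kb and the scores, and of a family of 2 genes the leading share alone, since the other is what remains of it. The share of beta subunit transcripts held by Cacnb1 was 92.4% in mouse 5, against 95.6% to 98.3% in the other 7 mice, a gap of 0.547 of the range. The share held by Cacnb4, part of the same total, was 6.51% in mouse 5, against 0.808% to 3.05% in the others, a gap of 0.607. The share of gamma subunit transcripts held by Cacng1 was 87.1% in mouse 1, against 91.1% to 94.2% in the others, a gap of 0.567.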

How the results depend on the processing

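No paired analysis was possible because the labels give 1 condition only, so no groups could be paired; the order of levels was tested within mice. Steps in the order of levels that differed numbered 7 of 9, 5 to 6 when 1 mouse was left out and 3 with the coding length. The share of Atp2a1 among SERCA transcripts was 98.9% as a share of reads and 99.37% to 99.42% when 1 mouse was left out, and that of Casq1 was 98.2% to 98.5% when 1 mouse was left out. Pairs with an exact p under 0.05 numbered 4 to 9 (main value 5) and relations with the scores 4 to 9 (main value 7) when 1 mouse was left out. Adjusted by limma over all genes, 0 to 1 pairs and 0 to 3 relations with scores passed when 1 mouse was left out, 2 pairs passed with GC content and length trends removed, and 1 relation passed under library totals. Adjusted within the family alone, as designed, 1 pair and 3 relations passed. Genes more variable than the median gene numbered 7 to 10 (main value 9) when 1 mouse was left out, 6 under library totals and 3 against all 31136 genes with a count. Of the 30 most like genes, 14 were also named by Spearman's rho. Under library totals the coefficient of variation was 11.7% for Cacna1s and 11.2% for Atp2a1. None of the 5 pairs and 7 score relations with an exact p under 0.05 changed sign under the alternatives run, which were not run for the wider list or the library measures. The cause of these shifts was not tested, and the fits that leave 1 mouse out also hold fewer mice. Depth limits Sln and Casq2 most.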
